A study of Mus musculus with 4 samples.

Results

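The genes described here encode SR proteins and hnRNPs, the 2 large families of RNA-binding proteins that steer pre-mRNA splicing. They were chosen by symbol among the protein-coding genes of the deposited tables, as the Srsf, Hnrnp, Tra2 and Ptbp genes. No measured value entered that rule, but the set was chosen with earlier results of these data known. The symbols gave 35 of 30694 genes in the gene table, of which 16948 are protein coding. They comprise 12 SR and Tra2 genes, 20 hnRNP genes and the 3 Ptbp genes. The same genes carried 25 of the 4669 open reading frames (ORFs) in the ORF table, spread over 20 genes.

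Ribosome profiling (Ribo-seq), which sequences the short RNA fragments that ribosomes protect, was done on cultured mouse female germline stem cells (FGSCs), a cell line from the ovary. A lentiviral short hairpin RNA against the long noncoding RNA Gm26917 was expressed in 2 libraries (shGm26917), and a control hairpin was used for the remaining 2 (shNC). All cells were infected, drug selected and treated with cycloheximide before lysis, and the legends of the study call the 2 libraries of a group biological replicates. The labels name no age, strain or clone, and the sources used here do not state which hairpin against Gm26917 was sequenced. The comparison asked which mRNAs gained or lost ribosomes after Gm26917 knockdown. Gm26917 itself had a footprint-to-RNA ratio of 113 and 8.62 in shGm26917 replicates 1 and 2, against 17.0 and 23.8 in shNC replicates 1 and 2. That ratio does not measure the amount of the RNA, so it does not check the knockdown.

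SR proteins carry RNA recognition motifs and a domain rich in arginine and serine. Bound to exonic enhancers, they recruit the spliceosome and promote exon inclusion. hnRNPs coat nascent transcripts and often act against SR proteins by binding silencers, and the polypyrimidine tract-binding proteins (Ptbp) are classic repressors of exons. Both families accompany mRNA beyond the nucleus and influence its export, stability and translation. Many members limit their own production by splicing in a poison exon that sends the transcript to nonsense-mediated decay. In germ cells, splicing regulators of these families contribute to the switch from proliferation to meiosis.

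The translation of some abundant mRNAs of the protein synthesis machinery is tied to a terminal oligopyrimidine (TOP) start, a C at the first transcribed base followed by a run of C and T. The start sites of the members in the RefSeq promoter table (GRCm38.p6) were therefore read for a C followed by at least 4 bases that are each C or T, on the coding strand. The table held 44 starts for 32 of the 35 genes. Such a start was present in 2 of the 44 (4.55%), in Hnrnpa0 and Srsf5, and in 823 of all 32851 starts in the table (2.51%), with no test. The starts of both are shown with those of Hnrnpab and Hnrnpa3, the members of highest and lowest translation efficiency (TE). Each window holds 15 bases on either side of the point where transcription begins in RefSeq, and the capitals mark the first 5 bases from there.
Hnrnpa0, chr13:58128542-58128571, minus strand: cgcgccttcagcggcCTCTTtgtgtggtgt
Srsf5, chr12:80945484-80945513, plus strand: gacgccaggacgtccCTTCCattttgtgca
Hnrnpab, chr11:51606867-51606896, minus strand: gtggtgcccggcttcGGCATtataaagagc
Hnrnpa3, chr2:75659244-75659273, plus strand: gtggtgactggccccGCCTCttcctctcgg
A match of these letters describes the window and is not a measured TOP element. The deposited gene coordinates begin Srsf5 at base 80945504, just past its capitals, so its match rests on the RefSeq start. For Hnrnpa0 both sources give base 58128556.

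For 2 of the listed ORFs the first codon also fell inside these RefSeq windows, and both began with ATG. They are the ORF of Hnrnpl with 586 codons, which had footprints in all 4 libraries, and the ORF of Srsf11 with 511 codons, one of the sparsest annotated ORFs among the members. In both lines the capitals mark the start codon.
Hnrnpl, chr7:28810896-28810925, plus strand: gggttctgcgccgccATGtcgcggaggctg
Srsf11, chr3:158036591-158036620, minus strand: tagctgcgcgcgctgATGtcgtcaccgcca
Counted from 1 at the first base of the RefSeq start, the ATG begins at base 22 in Hnrnpl and at base 2 in Srsf11. The deposited gene coordinates begin further upstream, at 28808541 for Hnrnpl and 158036639 for Srsf11. The positions therefore hold for these RefSeq starts only.

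The 4 libraries held unequal numbers of reads on the listed ORFs. Recovered from the ORF values, the totals were 157914 and 1753036 reads in shGm26917 replicates 1 and 2. They were 1618481 and 1049143 reads in shNC replicates 1 and 2. These totals cover the ORFs above 0 in each library and do not give the depth of sequencing. In the ORF values, 1 read stood for 2.25 and 0.756 in the shGm26917 libraries, against 0.790 and 1.17 in the shNC libraries. Reads were recorded on 372 and 4250 ORFs in the shGm26917 libraries and on 4211 and 3421 ORFs in the shNC libraries, so that 92.0% of all ORFs were listed at 0 in shGm26917 replicate 1. The gene table holds ratios, so the depth of its values is unknown. Of 16 germ cell and FGSC markers, 3 (Kit, Ifitm3 and Gfra1) had a TE above 0 in every library. The defining germ cell genes Ddx4 and Pou5f1 had none above 0 in any. Ifitm3 was the 1 germ cell marker with an ORF, at 0 and 799 in the shGm26917 libraries against 1111 and 797 in the shNC libraries. The study's own characterization of its FGSCs used RT-PCR and immunofluorescence, which included Ddx4 and Oct4 (Pou5f1). Of 10 fibroblast markers, 8 had a TE above 0 in every library, and their ORF values summed to 773 and 3595 in the shGm26917 libraries against 4574 and 4822 in the shNC libraries. Of 11 macrophage markers 6 had a TE above 0 in every library, with ORF values summing to 0 and 1436 in the shGm26917 libraries against 1074 and 772 in the shNC libraries. The part that other cell types or depth play in the values below was not tested. In a bulk culture, fewer cells of a type and less RNA per cell cannot be told apart.

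TE is the ratio of normalized footprints to normalized RNA, and a typical coding gene lay close to 1 in these libraries. The members as a group sat below the typical coding gene in every library. Their median TE was 0.564 and 0.726 in shGm26917 replicates 1 and 2, and 0.681 and 0.657 in shNC replicates 1 and 2. The median over the 9672 coding genes tested was 0.973 and 0.995 in the shGm26917 libraries, and 0.985 and 0.985 in the shNC libraries. Only 10 and 13 of the 33 members with a TE above 0 in all libraries exceeded their library's median in shGm26917, against 12 and 11 in shNC. The level differed by family. For the 19 hnRNP genes the median TE was 0.908 and 1.01 in the shGm26917 libraries, against 0.681 and 0.657 in the shNC libraries. It thus lay above the coding median in shGm26917 replicate 2. For the 11 SR and Tra2 genes it was 0.409 and 0.681 in the shGm26917 libraries, against 0.688 and 0.632 in the shNC libraries. These are levels in each library and were not tested against other genes.

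The spread within the families was wide. TE ran over a 232-fold and a 649-fold range in the shGm26917 libraries, and over a 447-fold and a 575-fold range in the shNC libraries. On the log2 scale the standard deviation of TE over members was 2.15 and 1.98 in the shGm26917 libraries and 1.91 and 1.94 in the shNC libraries, against 1.66 and 1.46, and 1.42 and 1.44, over the coding genes tested. Below the 5th percentile of coding genes lay 7 and 6 members in the shGm26917 libraries and 7 and 6 in the shNC libraries. Above the 95th percentile there was 1 member in each library, Hnrnpab.

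At the top, Hnrnpab, a single-strand binding protein of the A/B type, had a TE of 8.28 and 6.65 in shGm26917 replicates 1 and 2, against 7.45 and 7.16 in shNC replicates 1 and 2. The groups overlapped, and its level lay between the 96.4th and 97.9th percentile of coding genes. At the bottom, Hnrnpa3, a shuttling relative of Hnrnpa1, had a TE of 0.0357 and 0.0102 in the shGm26917 libraries, against 0.0167 and 0.0124 in the shNC libraries. Its highest and lowest values were both shGm26917 libraries, 3.48-fold apart, the widest gap between those libraries among the members. Hnrnpa1, which antagonizes SR proteins at silencers, was almost as low, with 0.0507 and 0.0463 in the shGm26917 libraries, against 0.0454 and 0.0587 in the shNC libraries. How reads of Hnrnpa1, Hnrnpa3 and their near-identical processed copies were assigned is not given in the sources used here, so these low ratios are uncertain.

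**Figure D1:**
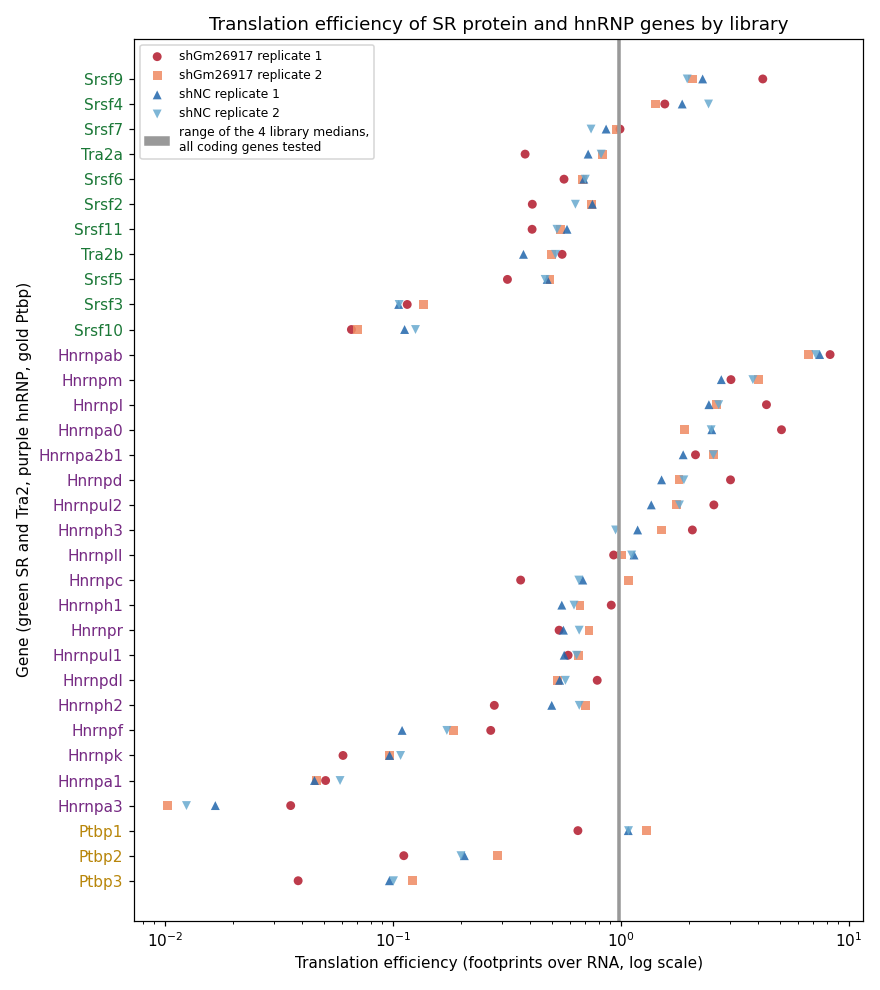
TE (ratio of footprints to RNA, log axis) of the 33 members with a ratio above 0 in every library, one row per gene, with a point for each of the 2 shGm26917 and 2 shNC libraries. The members span from 0.0102 for Hnrnpa3 to 8.28 for Hnrnpab, and for most genes the 4 libraries lie close together on that scale, with shGm26917 replicate 1 most often apart.

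A total of 33 members entered the test of TE, which used limma on log2(TE) over all 10115 genes with a ratio above 0 in every library. The other two were Srsf12, listed at 0 in all 4 libraries, and Hnrnpu, the nuclear scaffold attachment factor, whose ratio was blank except for a 0 in shNC replicate 2. No member passed an adjusted p under 0.05, and neither did any gene of the whole table (0%). At an unadjusted p under 0.05 there were 0 members in either direction, while 132 genes were higher (1.3%) and 87 lower (0.86%) over all genes tested. The adjusted p of the members ran from 0.965 to 0.994. A p that misses the threshold does not show that the values were equal, and the median standard error of a member's log2 change was 0.39. With 2 libraries a group, the 95% intervals in the plot of TE changes all included 0.

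The median log2 change (shGm26917 over shNC) over the 33 members was 0.04, with 18 positive (54.5%, against 50% of all genes tested) and 15 negative, beside a median of 0.00095 over all genes tested. By family the median was -0.23 for the 11 SR and Tra2 genes, with 4 positive and 7 negative. It was 0.11 for the 19 hnRNP genes, with 14 positive and 5 negative, and -0.24 for the 3 Ptbp genes, all negative. A fold of at least 1.5 was reached upwards by 2 members (6.06% of members, 12.2% of all genes) and downwards by 1 (3.03% of members, 13.3% of all genes). The groups did not overlap for 5 members that were higher (15.2% of members, 16.1% of all genes) and for 5 that were lower (15.2% of members, 14.8% of all genes). The shares without overlap lie near those of all genes, while the fold was reached by a smaller share of the members in both directions, with no test of that difference.

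Among the SR and Tra2 genes, Srsf10 had the most negative estimate. It encodes an SR protein that turns into a general splicing repressor when dephosphorylated, as in mitosis and heat shock. Its TE was 0.0659 and 0.0700 in shGm26917 replicates 1 and 2, against 0.113 and 0.126 in shNC replicates 1 and 2. Both shGm26917 values lay below both shNC values and each pair was tight, which made Srsf10 one of the few members whose 2 knockdown libraries gave nearly the same difference. The log2 change was -0.81 with a standard error of 0.47 and a 95% interval from -2.04 to 0.42 (limma adjusted p = 0.965). Its level was low throughout, between the 1.7th and the 3.55th percentile of coding genes.

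Srsf4, a long SR protein of nuclear speckles, came next, with a TE of 1.56 and 1.43 in the shGm26917 libraries, against 1.86 and 2.43 in the shNC libraries. The groups did not overlap, and the log2 change was -0.51 with an interval from -1.33 to 0.31. Tra2a, a relative of the fly sex determination factor Transformer-2, had 0.381 and 0.835 in the shGm26917 libraries, against 0.719 and 0.820 in the shNC libraries. Here the negative estimate of -0.45 came from shGm26917 replicate 1, as replicate 2 was the highest of the 4.

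Srsf6, a regulator of alternative exons, was lower in both shGm26917 libraries by a narrow margin, with 0.564 and 0.681 against 0.688 and 0.699 in the shNC libraries. Srsf2, the speckle protein that binds exonic enhancers, had 0.409 and 0.747 in the shGm26917 libraries, against 0.751 and 0.632 in the shNC libraries. Srsf5 had 0.318 and 0.489 in the shGm26917 libraries, against 0.475 and 0.466 in the shNC libraries. In Srsf2 and Srsf5, as in Tra2a, shGm26917 replicate 1 was the lowest library and replicate 2 lay within or above the shNC range. Srsf11 had 0.408 and 0.545 in the shGm26917 libraries, against 0.581 and 0.525 in the shNC libraries, with the same library lowest. The log2 changes of these last 4 genes ran from -0.32 for Srsf2 to -0.16 for Srsf6.

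The positive SR and Tra2 estimates were smaller in size than those of Srsf10 and Srsf4. Srsf9 had a TE of 4.20 and 2.06 in the shGm26917 libraries, against 2.29 and 1.96 in the shNC libraries, so 1 library stood above the rest (log2 change 0.47, interval -0.69 to 1.63). Srsf7, an SR protein with a zinc knuckle that couples splicing to export, had 0.992 and 0.955 in the shGm26917 libraries, against 0.862 and 0.741 in the shNC libraries. Its groups did not overlap and the log2 change was 0.28 (interval -0.52 to 1.09). Srsf3, the smallest SR protein and an export adaptor, also did not overlap, with 0.116 and 0.137 in the shGm26917 libraries, against 0.106 and 0.107 in the shNC libraries (log2 change 0.24). Tra2b, the paralog of Tra2a, had 0.553 and 0.496 in the shGm26917 libraries, against 0.374 and 0.518 in the shNC libraries, which overlapped (log2 change 0.25). The paralogs Tra2a and Tra2b thus had estimates of opposite sign, and neither passed the test.

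In the hnRNP family the highest estimates belonged to Hnrnph3 and Hnrnpf, both of the F/H group, whose quasi-RRM domains bind runs of G. Hnrnph3 had a TE of 2.06 and 1.51 in shGm26917 replicates 1 and 2, against 1.19 and 0.949 in shNC replicates 1 and 2. Its groups did not overlap, and the log2 change of 0.73 (standard error 0.34, interval -0.16 to 1.62, limma adjusted p = 0.965) had the smallest unadjusted p of all members, 0.0867. Hnrnpf had 0.269 and 0.184 in the shGm26917 libraries, against 0.110 and 0.173 in the shNC libraries. The groups were separate by the narrow gap between 0.184 and 0.173, and the log2 change was 0.69 (interval -0.58 to 1.96). These 2 genes are the members with a fold of at least 1.5 upwards, and Srsf10 is the member with one downwards.

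The other 2 members of the F/H group went different ways. Hnrnph1 had 0.908 and 0.662 in the shGm26917 libraries, against 0.551 and 0.623 in the shNC libraries, without overlap (log2 change 0.40, interval -0.51 to 1.32). Hnrnph2, its X-linked paralog, had 0.279 and 0.703 in the shGm26917 libraries, against 0.498 and 0.657 in the shNC libraries. There the shGm26917 libraries held both the lowest and the highest value (log2 change -0.37, interval -1.83 to 1.09).

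Hnrnpd (AUF1), which binds AU-rich elements and promotes mRNA decay, had a TE of 3.03 and 1.80 in the shGm26917 libraries, against 1.51 and 1.89 in the shNC libraries (log2 change 0.47). Hnrnpul2, a relative of Hnrnpu that acts in the DNA damage response, had 2.56 and 1.75 in the shGm26917 libraries, against 1.36 and 1.81 in the shNC libraries (log2 change 0.43). Hnrnpl, which binds CA-rich RNA, had 4.35 and 2.63 in the shGm26917 libraries, against 2.43 and 2.69 in the shNC libraries (log2 change 0.40). In all of these shGm26917 replicate 1 was the highest library and replicate 2 lay within the shNC range. The same held for Hnrnpdl, with 0.788 and 0.525 in the shGm26917 libraries against 0.539 and 0.572 in the shNC libraries, except that replicate 2 was the lowest. Hnrnpa0, an AU-rich element binder downstream of stress kinases, had 5.07 and 1.91 in the shGm26917 libraries, against 2.51 and 2.49 in the shNC libraries (log2 change 0.32). The shNC values of Hnrnpa0 were almost equal, and the shGm26917 libraries lay on either side of them.

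The hnRNP genes with negative estimates were led by Hnrnpk, a KH-domain protein that binds C-rich sequences. Its TE was 0.0605 and 0.0963 in the shGm26917 libraries, against 0.0968 and 0.108 in the shNC libraries. The groups touched without overlapping, and the log2 change was -0.42 (interval -1.79 to 0.94). Hnrnpll, known for the exon switch of CD45 in T cells, had 0.930 and 1.01 in the shGm26917 libraries, against 1.14 and 1.12 in the shNC libraries. Its 4 values were close together and the groups separate (log2 change -0.22, interval -0.999 to 0.56). Hnrnpc, whose tetramers bind U-rich tracts of nascent RNA, had 0.364 and 1.08 in the shGm26917 libraries, against 0.681 and 0.654 in the shNC libraries, an estimate of -0.09 between 2 libraries that moved apart.

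Several hnRNP genes had estimates near 0. Hnrnpul1 had a TE of 0.587 and 0.651 in the shGm26917 libraries, against 0.565 and 0.640 in the shNC libraries. Hnrnpa2b1, which sorts RNAs for transport, had 2.13 and 2.55 in the shGm26917 libraries, against 1.88 and 2.55 in the shNC libraries. Hnrnpm had 3.04 and 4.01 in the shGm26917 libraries, against 2.76 and 3.80 in the shNC libraries, and Hnrnpr had 0.536 and 0.726 against 0.560 and 0.657. The log2 changes of these 4 genes lay between 0.04 and 0.11, with 95% intervals whose upper ends ran from 0.89 to 1.01 and lower ends from -0.88 to -0.77, and the groups overlapped in each.

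The 3 Ptbp genes shared a pattern. Ptbp1, the widely expressed repressor of alternative exons, had a TE of 0.649 and 1.29 in the shGm26917 libraries, against 1.08 and 1.08 in the shNC libraries. Ptbp2, the paralog that takes over in neurons, had 0.112 and 0.289 in the shGm26917 libraries, against 0.206 and 0.199 in the shNC libraries. Ptbp3 had 0.0384 and 0.122 in the shGm26917 libraries, against 0.0966 and 0.101 in the shNC libraries. In each gene shGm26917 replicate 1 was the lowest and replicate 2 the highest of the 4, and the shNC libraries lay close together between them. The fitted log2 changes of -0.24, -0.17 and -0.53 for Ptbp1, Ptbp2 and Ptbp3 are therefore averages of opposite deviations.

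**Figure D2:**
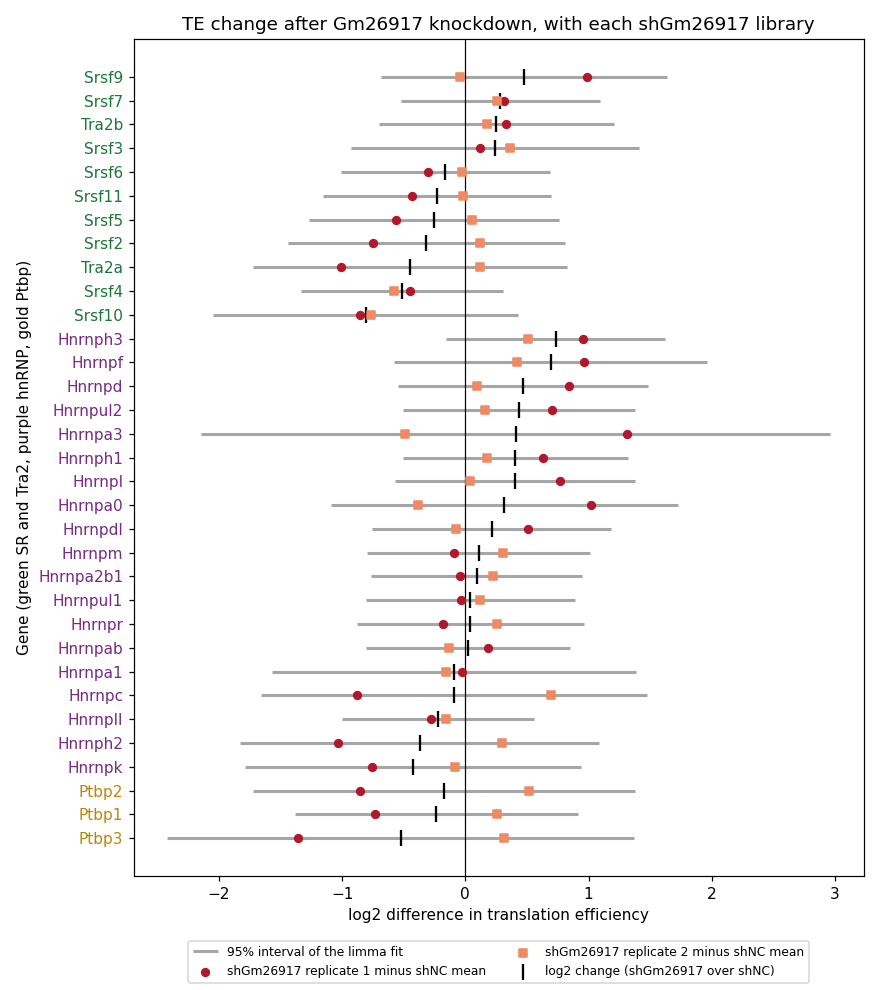
log2 difference in TE for each of the 33 members, with the fitted change (shGm26917 over shNC, tick) and its 95% interval (grey bar) beside each shGm26917 library minus the shNC mean of log2 values (points). All intervals include 0, and the point of shGm26917 replicate 1 usually lies farther from 0 than that of replicate 2.

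The shGm26917 libraries disagreed for many members, and this was not particular to them. The median gap in log2 TE between these libraries was 0.55 over the members and 0.63 over the coding genes tested. Between the shNC libraries it was 0.18 and 0.26. The counts that follow have no share over all genes beside them. Set against the shNC mean, 9 members were higher in both shGm26917 libraries, 7 were lower in both and 17 went opposite ways. The median size of the log2 difference was 0.71 in shGm26917 replicate 1 and 0.18 in replicate 2, and it exceeded 0.5 for 20 and for 5 members. For 24 of 33 members the gap between the shGm26917 libraries was wider than that between the shNC libraries, and for 25 the fitted change was smaller than the gap between the shGm26917 libraries. The widest gap between the shNC libraries was 1.57-fold, for Hnrnpf.

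Which way replicate 1 deviated varied within and between the families. The median log2 difference in shGm26917 replicates 1 and 2 was -0.44 and 0.06 for the SR and Tra2 genes, 0.18 and 0.12 for the hnRNP genes, and -0.86 and 0.31 for the Ptbp genes. In replicate 1, 7 of 11 SR and Tra2 genes were below the shNC mean and 4 above it. The 19 hnRNP genes split into 10 above and 9 below, and all 3 Ptbp genes were below it. These are descriptions of 1 library each, with no test and no count over all genes beside them. Across the 33 genes, which are not independent replicates, log2 TE in shGm26917 replicate 1 correlated with that of the other libraries at r = 0.922 to 0.941, while the other pairs of libraries reached 0.984 to 0.991. Over the coding genes tested the same values were 0.739 to 0.761 and 0.918 to 0.933, so the lower likeness of this library was not confined to the members.

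**Figure D3:**
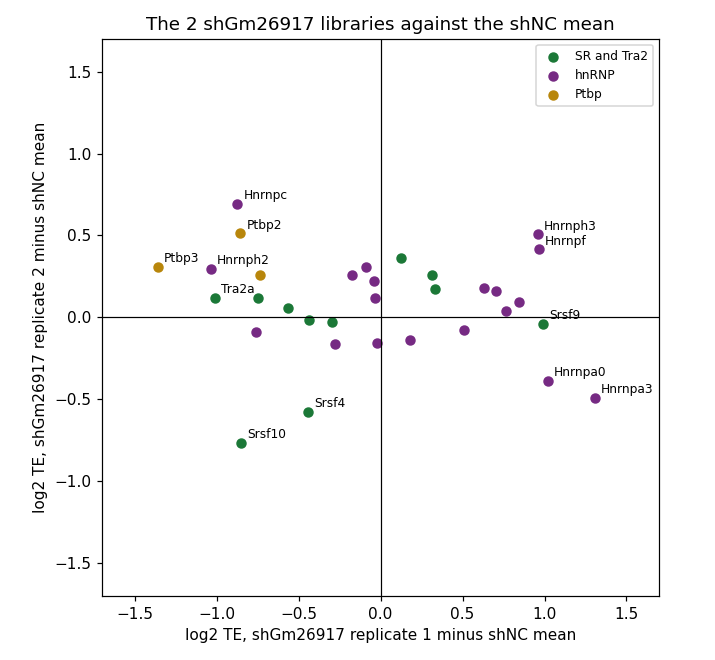
log2 TE of each member in shGm26917 replicate 1 (horizontal axis) and replicate 2 (vertical axis), each minus the shNC mean, with 1 point per gene colored by family. The points spread further along the horizontal axis than along the vertical one, the 3 Ptbp genes lie in the upper left, and Srsf10, Srsf4, Hnrnph3 and Hnrnpf stand among the members where both libraries lie on the same side.

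The ORF table gave footprints per ORF, a signal that does not divide by RNA. It listed ORFs of 20 members, 16 of them with an annotated coding ORF, and none of the Ptbp genes. The members not listed besides these were Srsf3, Srsf12, Hnrnpa3, Hnrnpab, Hnrnpc, Hnrnpd, Hnrnph1, Hnrnph3, Hnrnpk, Hnrnpll, Hnrnpm and Hnrnpu. Of the 25 ORFs, 6 (24.0%) belonged to another class than annotated, against 322 of all 4669 ORFs (6.90%), with no test. Those 6 lay in Srsf5, Srsf7, Srsf10 and Hnrnpa2b1, and 5 of them were in SR genes. The member ORFs together took 0.747% of the reads in shGm26917 replicate 1 (Wilson 95% interval 0.705% to 0.790%) and 0.396% in replicate 2 (0.387% to 0.406%), against 0.398% (0.388% to 0.408%) and 0.379% (0.368% to 0.391%) in shNC replicates 1 and 2. These intervals cover counting error only. The total in shGm26917 replicate 1 comes from 372 ORFs above 0, against 4250 in replicate 2 and 4211 and 3421 in the shNC libraries. Shares in that library therefore have another base and do not compare directly with the others. In shGm26917 replicate 1 a single ORF, that of Hnrnpa0, made up 71.1% of the member reads, against 24.1% in replicate 2 and 32.0% and 31.0% in the shNC libraries.

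In shGm26917 replicate 1, 21 of the 25 member ORFs (84%) were listed at 0, as were 92.0% of all ORFs. The numbers above 0 were 4 and 22 in shGm26917 replicates 1 and 2, against 23 and 21 in shNC replicates 1 and 2. For 13 member ORFs (52.0%, against 48.8% of all ORFs) shGm26917 replicate 1 was the lone library at 0. With so few ORFs recorded there, a 0 in this library is reported as listed at 0. It does not show that footprints were absent, as a TE above 0 requires footprints on the gene. Srsf2, Srsf9 and Hnrnpul2, whose annotated ORFs were listed at 0, had a TE of 0.409, 4.20 and 2.56 in this library. The fitted changes and the counts that follow include these listed 0 values. By limma on log2(value + 1), 0 of the 25 member ORFs passed an adjusted p under 0.05, as did 0% of all ORFs. At an unadjusted p under 0.05 there were 0 member ORFs, 10 of all ORFs were higher (0.214%) and 336 lower (7.2%). When shGm26917 replicate 2 was left out, 7 member ORFs and 1982 of all ORFs passed, and 6 of the 7 were ORFs listed at 0 in the remaining shGm26917 library. The groups did not overlap for 2 member ORFs that were higher (8%, against 1.73% of all ORFs) and for 7 that were lower (28%, against 27.3%). A fold of at least 1.5 was reached upwards by 2 member ORFs (8%, against 5.48% of all ORFs) and downwards by 16 (64%, against 61.2%), all of them listed at 0 in shGm26917 replicate 1. The median log2 change was -1.66 over the member ORFs and -2.13 over all ORFs, on the log2(value + 1) scale, and the member median was 0.27 when shGm26917 replicate 1 was left out.

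A total of 4 member ORFs were listed above 0 in shGm26917 replicate 1. The Hnrnpa0 ORF of 305 codons was the strongest of the members, with 1884 and 1264 in shGm26917 replicates 1 and 2, against 1627 and 1437 in shNC replicates 1 and 2, and the groups overlapped. The Hnrnpa1 ORF of 373 codons had 98.9 and 94.5 in the shGm26917 libraries, against 67.1 and 47.8 in the shNC libraries. Both shGm26917 values were above both shNC values, with a log2 change of 0.76 and a standard error of 2.27 (limma adjusted p = 1.00). The Hnrnpl ORF of 586 codons had 96.6 and 22.7 in the shGm26917 libraries, against 32.4 and 40.8 in the shNC libraries, so the shGm26917 libraries enclosed the others. These 3 were the member ORFs above 0 in all 4 libraries.

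The fourth, the Hnrnpul1 ORF of 859 codons, differed most. Hnrnpul1 encodes a protein related to Hnrnpu that takes part in DNA end resection. Its value was 571 and 310 in the shGm26917 libraries, against 0 and 8.16 in the shNC libraries, which is 254 and 410 recovered reads against 0 and 7. The log2 change was 7.12 with a standard error of 2.61 and an interval from -0.40 to 14.6 (limma adjusted p = 0.740). On the recovered reads edgeR gave 6.77 (adjusted p = 1.00) and DESeq2 6.80 (adjusted p = 0.277), so no tool called it. Over all ORFs, edgeR called 0% at an adjusted p under 0.05 and 0.102% at an unadjusted one, and DESeq2 called 0.0643% and 7.5%. The TE of the same gene, given above, was nearly the same in all libraries, with a log2 change of 0.04. An ORF value that is high in both shGm26917 libraries thus stood beside a gene-level ratio with an estimate near 0. Hnrnpr also had a value at 0 among high ones, with 0 and 179 in the shGm26917 libraries, against 150 and 0 in the shNC libraries for its ORF of 632 codons, while its TE was above 0.5 in every library.

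The other annotated ORFs of the SR genes were carried by 3 libraries. The Srsf2 ORF had 0 and 792 in the shGm26917 libraries, against 806 and 973 in the shNC libraries. The Srsf9 ORF had 0 and 500 in the shGm26917 libraries, against 596 and 437 in the shNC libraries. In both genes shGm26917 replicate 2 was within or just below the shNC range. The Srsf6 ORF had 0 and 148 in the shGm26917 libraries, against 250 and 37.3 in the shNC libraries, a wide spread between the shNC libraries. The Srsf4 ORF had 0 and 27.2 in the shGm26917 libraries, against 108 and 92.1 in the shNC libraries. In Srsf4 shGm26917 replicate 2 also lay well below both shNC libraries, in 36 recovered reads against 137 and 79. Its TE was lower in both shGm26917 libraries too. The Tra2b ORF, given below, also had replicate 2 below both shNC libraries, on fewer reads, while the TE of Tra2b overlapped. Without shGm26917 replicate 1 the log2 change of the Srsf4 ORF was -1.84, not past the threshold.

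Short and sparse ORFs followed. The Tra2b ORF of 38 codons had 0 and 9.82 in the shGm26917 libraries, against 22.9 and 30.3 in the shNC libraries. The Tra2a ORF of 59 codons had 0 and 21.2 in the shGm26917 libraries, against 15 and 25.6 in the shNC libraries. Both are shorter than the full proteins of these genes, and the Tra2b values rest on 13 reads in shGm26917 replicate 2 and on 29 and 26 reads in the shNC libraries. The Srsf11 ORF had 0 and 3.02 in the shGm26917 libraries, against 13.4 and 2.33 in the shNC libraries, which is at most 17 reads.

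Among the hnRNP genes the Hnrnpul2 ORF had 0 and 1428 in the shGm26917 libraries, against 1084 and 1164 in the shNC libraries. The Hnrnph2 ORF had 0 and 223 in the shGm26917 libraries, against 171 and 198 in the shNC libraries. The Hnrnpf ORF had 0 and 121 in the shGm26917 libraries, against 72.7 and 107 in the shNC libraries. In all of them shGm26917 replicate 2 was the highest library and replicate 1 was listed at 0. The second ORF of Hnrnpl, of 592 codons, had at most 11.1 in any library, and its ORF of 179 codons at most 2.37. The ORFs of Hnrnpdl, of 420 and 70 codons, reached at most 24.2 and 7.56.

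The strongest of the ORFs outside the annotated class was in Srsf5, an SR protein gene for which no annotated ORF was listed. It is an upstream ORF (uORF) of 8 codons at chr12:80945575-80945601 (mm10) on the plus strand, downstream of the Srsf5 start shown above. Its value was 0 and 58.2 in the shGm26917 libraries, against 29.2 and 18.6 in the shNC libraries. Per 100 codons this was 727 in shGm26917 replicate 2, against 365 and 233 in the shNC libraries. These levels all lay above the 90th percentile of the annotated ORFs above 0 in their library. With 8 codons, few reads give a high value on this scale. The values rest on 77, 37 and 16 reads, and the direction of the fitted change depended on the model, with a log2 change of -1.66 by limma, 0.28 by edgeR and 0.24 by DESeq2, none past the threshold. The other 5 held at most 8 reads in any library. They were a downstream ORF (dORF) of 118 codons in Srsf7 and, in the class that RiboCode keeps for noncoding transcripts, ORFs of 157 codons in Srsf7, 138 codons in Srsf5, 69 codons in Srsf10 and 173 codons in Hnrnpa2b1. The ORF of 138 codons in Srsf5, that of 157 codons in Srsf7 and that of 179 codons in Hnrnpl were listed at 0 in both shGm26917 libraries. Each had 1 to 4 reads per shNC library, below the depth at which the groups could be told apart.

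**Figure D4:**
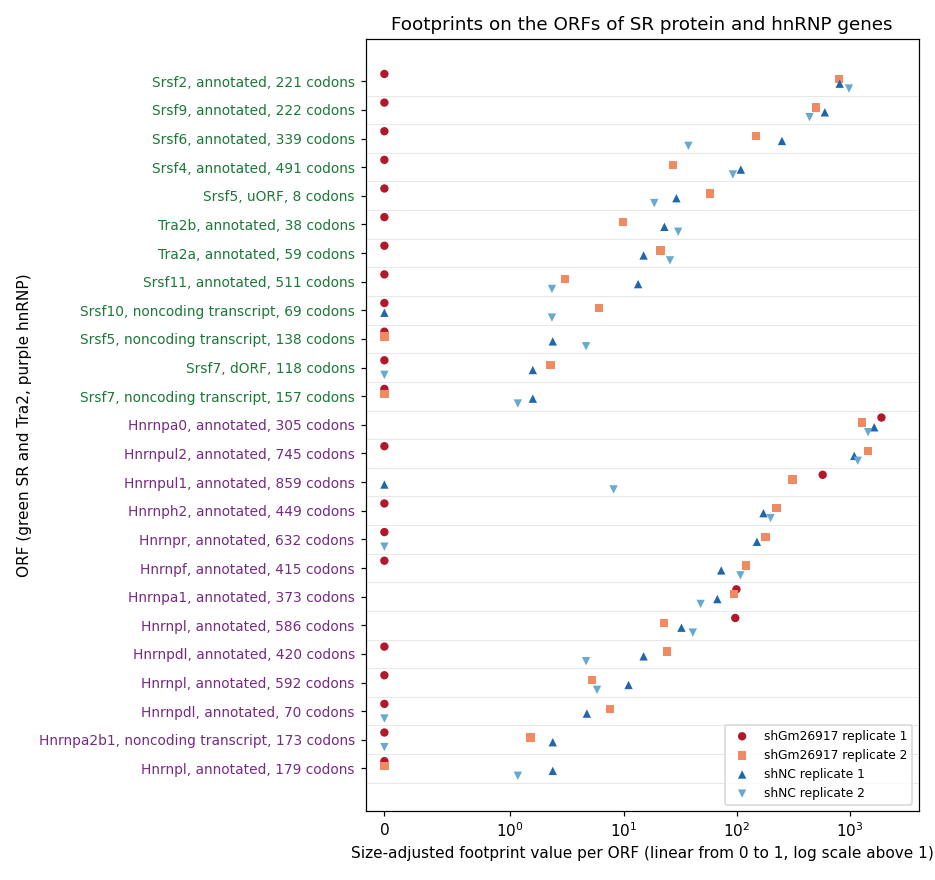
Size-adjusted footprint value of the 25 member ORFs (horizontal axis, linear from 0 to 1 and log above 1) in the 2 shGm26917 and 2 shNC libraries, with class and length beside each gene. In shGm26917 replicate 1, 21 ORFs sit at 0, and Hnrnpul1 is the ORF where both shGm26917 libraries lie far above both shNC libraries.

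The genes that work with these proteins were counted in the same way. As 0% of the 10115 genes tested passed, a count of 0 was fixed for every list and says nothing particular about it. Of 32 tested core spliceosome genes, 0 passed the test in either direction, with a median log2 TE change of -0.14 and 11 positive against 21 negative. Of 11 tested kinases, phosphatase and import receptors that act on SR proteins and hnRNPs, 0 passed (median -0.04). Of 14 nonsense-mediated decay factors 0 passed (median 0.08), and of 38 other RNA-binding splicing regulators 0 passed (median 0.18, with 26 positive and 12 negative). The smallest unadjusted p among them belonged to U2af1, which recognizes the AG of the 3′ splice site. Its TE was 0.0484 and 0.0270 in the shGm26917 libraries, against 0.0837 and 0.141 in the shNC libraries, without overlap (log2 change -1.59, limma adjusted p = 0.965).

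Groups without overlap, higher and lower, were found for 5 and 3 of the 32 core spliceosome genes. They were found for 1 and 5 of the 11 kinases, phosphatase and import receptors. The counts were 1 and 0 of the 14 nonsense-mediated decay factors, and 5 and 3 of the 38 other regulators. Over all genes tested the shares were 16.1% higher and 14.8% lower, and the difference was not tested. The genes named next were picked by the smallest unadjusted p in their list. Prpf31, a tri-snRNP protein, had a TE of 6.25 and 4.82 in the shGm26917 libraries, against 3.31 and 3.43 in the shNC libraries. Tnpo1, the transportin that imports Hnrnpa1, had 0.413 and 0.594 in the shGm26917 libraries, against 0.700 and 0.781 in the shNC libraries. Both had a limma adjusted p of 0.965, with log2 changes of 0.70 and -0.58. Rbm39, a U2af-related coactivator, was lower without overlap, with 0.254 and 0.579 in the shGm26917 libraries against 0.654 and 0.756 in the shNC libraries, and Puf60, which aids 3′ splice site choice, was higher, with 2.07 and 2.38 against 1.63 and 1.55. Among the kinases of SR proteins, Dyrk1a had 2.09 and 0.873 in the shGm26917 libraries, against 0.703 and 0.776 in the shNC libraries, and Clk2 had 2.48 and 0.792 against 0.798 and 0.807. Both were highest in shGm26917 replicate 1, and in Clk2 replicate 2 was the lowest of the 4, so its groups overlapped.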

How the data were processed

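Ribo-seq of FGSCs was analysed in 2 shGm26917 and 2 shNC libraries, grouped by the sample labels. The ORF table holds ORFs that the authors called with RiboCode, with a signal per library (read number per ORF over a library size factor) as deposited. All values above 0 came out as whole reads within a tolerance of 0.01 reads (100% in each library), so whole reads were recovered. In shGm26917 replicate 1 low values were too few for a separate check. The gene table holds TE, a ratio of normalized Ribo-seq over normalized RNA-seq values formed by the authors. Further columns hold the authors' own log2 changes, p-values and classes, and were not used. The build in the submitters' processing notes is mm10. Aligner and counter: not given in the sources used here.

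TE was tested with limma 3.58.1 (lmFit, eBayes with trend, R 4.3.3) on log2(TE) for the 10115 genes above 0 in all libraries, and ORFs on log2(value + 1) where the value exceeded 1 in 2 or more libraries, as it did for all 4669 ORFs. This scale understates the change of low values. P-values were adjusted over all features by Benjamini-Hochberg. They measure only the spread between these libraries. TE percentiles are among coding genes whose TE in that library exceeded 0. Recovered reads were tested with edgeR 4.0.16 (quasi-likelihood, TMM, filterByExpr, 3927 ORFs) and DESeq2 1.42.0. Procedures were tested on simulated data. Alternatives changed the filter, pseudocount, normalization, trend, library weights, replicate block and the libraries kept. Members, gene lists and tests were chosen with earlier results of these data known. Full values were set for the extremes of each family in TE and TE change and for members with ORFs in shGm26917 replicate 1 or outside the annotated class, and for up to 3 genes per list with the smallest p. Some genes of these lists are not reported here. Values of further members were added after they were seen. Processed pseudogenes whose symbols match were left out. Sequences are from RefSeq, GRCm38.p6.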

Additional observations from a re-analysis of the deposited data

How the results depend on the processing

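No member gene passed the TE test under any alternative, and the number of genes called stayed at 0 except without shGm26917 replicate 2, where 583 genes and 0 members passed. In that fit the lone library of a group is assumed to vary like the others. Leaving out 1 library moved the median TE change of the members between -0.07 and 0.13. It turned the sign of 13 of 33 members without shGm26917 replicate 1, of 4 without replicate 2, and of 4 and 2 without shNC replicates 1 and 2. Among the members that turned, the TE change ran over the libraries left out for Hnrnpa0 from -0.39 to 1.02, Hnrnpa1 from -0.28 to 0.096, Hnrnpa2b1 from -0.13 to 0.31, Hnrnpa3 from -0.49 to 1.31, Hnrnpab from -0.14 to 0.18, Hnrnpc from -0.88 to 0.69, Hnrnpdl from -0.079 to 0.51, Hnrnph2 from -1.04 to 0.30 and Hnrnpm from -0.12 to 0.34. It ran for Hnrnpr from -0.18 to 0.26, Hnrnpul1 from -0.049 to 0.13, Ptbp1 from -0.74 to 0.26, Ptbp2 from -0.86 to 0.51, Ptbp3 from -1.36 to 0.31, Srsf2 from -0.75 to 0.12, Srsf5 from -0.56 to 0.056, Srsf9 from -0.040 to 0.99 and Tra2a from -1.01 to 0.12. Quantile normalization turned Hnrnpa1 to 0.13, Hnrnpa2b1 to -0.020, Hnrnpab to -0.30, Hnrnpc to 0.027, Hnrnpm to -0.060 and Ptbp2 to 0.11. The median TE percentile of the members was 33.7, and 32.4 among genes with a TE above 0 in all libraries. For ORFs, DESeq2 called 3 of all ORFs and no member. Without shGm26917 replicate 2, 1982 ORFs passed and 7 of them were members, namely the Hnrnpl ORF of 586 codons (higher, 1.39) and those of Hnrnpf, Hnrnpul2, Hnrnph2, Srsf9, Srsf2 and Srsf4 (lower, with the remaining library at 0). Over all libraries left out in turn, the counts were 0 to 583 for genes, 0 to 1982 for ORFs and 0 to 7 for member ORFs, and the median ORF change ran from -3.18 to 0.27. Where leaving out a library turned the direction of a member ORF, its change ran for Hnrnpa0 (305 codons) from -0.27 to 0.30, Hnrnpa2b1 (173 codons) from -1.09 to 0.66, Hnrnpdl (420 codons) from -3.25 to 1.40, Hnrnpdl (70 codons) from -1.26 to 1.84, Hnrnpf (415 codons) from -6.48 to 0.45, Hnrnph2 (449 codons) from -7.53 to 0.27 and Hnrnpl (586 codons) from -0.66 to 1.39. It also ran for Hnrnpr (632 codons) from -3.62 to 3.87, Hnrnpul2 (745 codons) from -10.14 to 0.35, Srsf10 (69 codons) from -0.87 to 1.95, Srsf5 (8 codons) from -4.61 to 1.28, Srsf6 (339 codons) from -6.61 to 0.61, Srsf7 (118 codons) from -0.68 to 1.02 and Tra2a (59 codons) from -4.37 to 0.10. The median was 0.52 with quantile normalization and 0.36 over the 3 ORFs above 0 in all libraries. Quantile normalization turned the Hnrnpdl ORF of 420 codons to 1.16, the Srsf5 uORF to 0.82, Hnrnpa2b1 to 1.63, Hnrnpf to 0.0047, Tra2a to 0.52, the Hnrnpl ORFs of 592 and 179 codons to 0.42 and 0.54, Srsf11 to 0.40, the Srsf7 ORF of 157 codons to 0.63 and the Srsf5 ORF of 138 codons to 0.24. The Hnrnpdl ORF of 420 codons was 0.30 with edgeR and 0.27 with DESeq2, and the Srsf5 uORF 0.28 and 0.24. The cause of these shifts was not tested. Libraries of the same number did not deviate together (r = -0.04 for TE and -0.09 for ORFs). With 2 libraries a group and shGm26917 replicate 1 so sparse, this cannot exclude a pairing by number. The replicate block gave 0 calls and changed no direction. The ORF values of shGm26917 replicate 1 rest on 157914 reads in all, and the depth of the TE values is unknown.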
